A study of Mus musculus with 10 samples.

Results

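The 10 genes described here code for alpha and beta tubulin, the 2 proteins that pair and polymerise into microtubules. They were taken by name from the 52097 genes of the deposited table, and all 10 were found: the alpha genes Tuba1a, Tuba1b, Tuba1c, Tuba4a and Tuba8, and the beta genes Tubb1, Tubb2a, Tubb2b, Tubb4b and Tubb5. They are not the whole family. RNA was sequenced from mouse bone marrow cells sorted as haematopoietic stem cells (lineage-negative, Sca-1 and c-Kit positive, CD48 negative, CD150 positive, about 5000 cells per sample). The 5 control samples are titled Dhx16_fl and carry the genotype label WT, and the 5 knockout samples are titled Dhx16_CKO with the label KO, names that point to a floxed gene with and without its deletion. Dhx16 is an RNA helicase of the spliceosome. The Cre line, the age of the mice and the number of animals behind the samples are not given in the sources used here, so the spread between samples may be technical in part. The genes were picked after their levels in the 2 groups had been seen, so their differences between control and knockout are given as a description with no test.

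Microtubules are hollow filaments that grow and shrink at their ends, pull chromosomes apart in mitosis and carry cargo between divisions. Mammals have several alpha and beta genes, called isotypes, whose proteins differ mostly in their tails. Tuba1b, Tubb5 and Tubb4b are expressed in most dividing cells. Tubb1 is the beta isotype of megakaryocytes and platelets, where it forms the marginal band that keeps a platelet flat. Tubulin chains need the CCT chaperonin and a set of folding cofactors to become dimers, and cells adjust the stability of tubulin mRNA to the amount of free dimer, a process that uses the ribosome-binding protein TTC5.

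Levels are in FPKM, a unit that corrects for the length of the transcript and the size of the library. The FPKM of a library summed to 770789 to 957520 in control and 877099 to 966648 in knockout libraries. Library columns are named WT2 to WT6 and CKO7 to CKO13, numbers that differ from those of the sample titles. Differences are knockout minus control in mean log2(FPKM + 1), with n = 5 in each group. Dhx16 ranged over 14.3 to 22.6 FPKM in the controls and 7.1 to 10.9 in the knockouts (log2 difference -0.81, SE 0.16, limma adjusted p = 0.000638, and -0.45 under median-of-ratios scaling and -0.35 with upper-quartile factors over all genes above 0, adjusted p = 0.0156 and 0.0495). The files do not show which exons were deleted, so this value may include reads outside them. The stem cell markers Kit (154 and 123 FPKM on average in control and knockout) and Ly6a (196 and 203) were detected in both groups. Markers of other cells were also present. The sum of 6 granulocyte markers was 9623 to 74170 FPKM in control and 8348 to 40842 in knockout libraries, that of 6 bone matrix markers 3180 to 65870 and 4549 to 47778, and none of these 12 genes passed the test. No library counts were used, so the depth of each library is unknown.

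The promoters of the beta genes are shown because these genes lie on both sides of the comparison: Tubb4b and Tubb5 were higher in knockout and Tubb1 and Tubb2a were lower. The RefSeq promoter table (build GRCm38.p6) held 9 of the 10 genes, all but Tubb2b. Each run begins 250 bases before the RefSeq start and ends at that start, or earlier where an annotated exon begins. Capitals mark matches, on either strand, to any of 8 short motifs, which were the GATA motifs AGATAA and TGATAA, the NF-E2 core TGANTCA, the CCAAT box, the CHR element TTTGAA, the E2F motif TTCCCGC, the ETS motif CCGGAAG and the GC box GGGCGG, each counted separately even where they overlap.
Tubb4b (chr2:25224703-25224952, minus strand): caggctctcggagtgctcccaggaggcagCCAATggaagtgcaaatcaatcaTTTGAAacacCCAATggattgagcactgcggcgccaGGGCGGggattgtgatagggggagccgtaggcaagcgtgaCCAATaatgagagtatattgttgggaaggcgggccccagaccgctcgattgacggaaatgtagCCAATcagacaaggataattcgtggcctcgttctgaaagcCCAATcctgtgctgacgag
Tubb5 (chr17:35838307-35838551, minus strand): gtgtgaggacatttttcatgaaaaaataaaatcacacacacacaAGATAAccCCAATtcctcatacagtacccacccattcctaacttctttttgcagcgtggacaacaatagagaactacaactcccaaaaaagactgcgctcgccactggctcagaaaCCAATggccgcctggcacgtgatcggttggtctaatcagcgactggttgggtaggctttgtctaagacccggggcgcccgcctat
Tubb1 (chr2:174450345-174450594, plus strand): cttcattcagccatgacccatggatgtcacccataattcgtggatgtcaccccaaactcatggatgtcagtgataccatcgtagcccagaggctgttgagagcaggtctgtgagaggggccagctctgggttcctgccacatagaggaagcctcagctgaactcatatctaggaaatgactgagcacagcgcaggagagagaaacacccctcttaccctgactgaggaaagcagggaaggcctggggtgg
Tubb2a (chr13:34078009-34078258, minus strand): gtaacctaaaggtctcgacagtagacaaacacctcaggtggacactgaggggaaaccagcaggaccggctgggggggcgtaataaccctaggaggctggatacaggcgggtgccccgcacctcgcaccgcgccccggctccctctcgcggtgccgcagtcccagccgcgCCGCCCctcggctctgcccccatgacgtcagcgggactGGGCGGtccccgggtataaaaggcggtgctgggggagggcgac
The window of 300 bases around the start, 250 before and 50 after it, was searched. The Tubb4b window held CCAAT 5 times, 221, 188, 122, 59 and 19 bases before the start. Tubb5 held it 198 and 90 bases before the start. Tubb1 had none before its RefSeq start and 2 after it, at 27 and 30 bases, and Tubb2a none. The start of Tubb1 in the GENCODE M21 annotation, 174450695, lies further downstream, and both matches lie before it. Their side of the start therefore depends on the annotation used. Of the 9 tubulin windows 5 held CCAAT, as did 37.4% of all 32851 promoter windows in the table. GGGCGG was found in 6 of the 9, Tubb2a among them, and in 35.7% of all windows. Of the GATA motifs, AGATAA was found 1 time, in Tubb5, and in 11.2% of all windows, and TGATAA in none of the 9 and in 9.05%. TTTGAA was in Tubb4b alone of the 9 (17.9% of all windows), and the NF-E2, E2F and ETS motifs were in none (7.81%, 4.6% and 8.86%). A match to such letters is a description and not a binding site.

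The 10 genes split into 6 that were higher and 4 that were lower in knockout. For 8 of them the 5 control and 5 knockout libraries did not overlap, 4 higher and 4 lower. Among all 6913 genes tested, 35.0% had groups that did not overlap, 12.9% higher and 22.1% lower in knockout. Genes were tested when they reached 10 FPKM in at least 5 libraries, which 9 of the 10 did and Tubb2b did not. In the limma fit over all genes 52.7% were called at an adjusted p under 0.05, 21.1% higher and 31.6% lower, and of the 9 tubulin genes 5 were called higher and 3 lower. Since the genes were chosen on this contrast, nothing is read from these counts. The median log2 difference of the 10 genes was 0.43 and that of all tested genes -0.12.

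**Figure D1:**
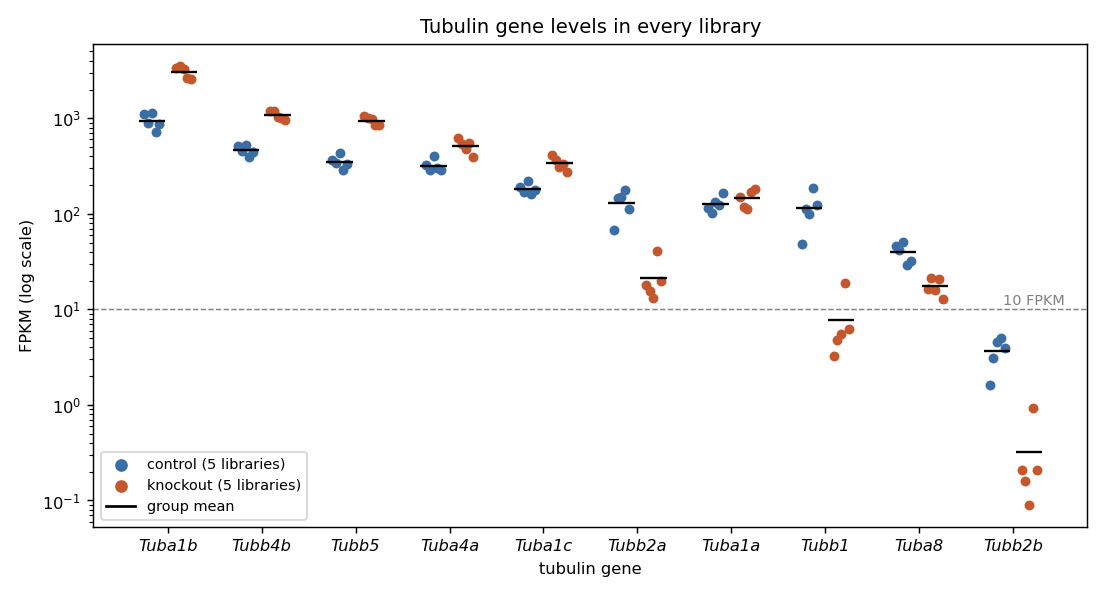
FPKM of the 10 tubulin genes on a log axis, ordered by their control mean, with 1 point per library (5 control, 5 knockout) and a black bar at each group mean. Tuba1b lies at 721 to 1146 in control and 2569 to 3531 in knockout, while Tubb1 lies at 47.8 to 188 and 3.24 to 18.9, and the groups of Tuba1a overlap.

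Tuba1b, the most abundant of the 10 in both groups, had the largest difference of those that were higher. It was at 1099, 885, 1146, 721 and 863 FPKM in WT2 to WT6 and at 3376, 3531, 3262, 2638 and 2569 in CKO7, CKO8, CKO9, CKO12 and CKO13. Every knockout library lay above every control library. The means were 943 ± 176 and 3075 ± 442 FPKM (SD), 3.26-fold higher in knockout (log2 1.71). Its mean ranked 126th of all genes in control and 47th in knockout.

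Tubb5 and Tubb4b, the main beta genes, followed Tuba1b. Tubb5 was at 366, 339, 435, 285 and 332 FPKM in control and 1055, 1015, 984, 843 and 841 in knockout libraries, in the same order. Its means of 352 ± 54.9 and 948 ± 99.4 differed 2.70-fold (log2 1.44), with no overlap. Tubb4b was at 516, 456, 524, 391 and 446 FPKM in control and 1206, 1197, 1040.5, 1015 and 955 in knockout. Its means were 466 ± 54.4 and 1083 ± 113, 2.32-fold higher (log2 1.21), again with every knockout library above every control library. WT5 was the lowest control library for all 3 of these genes.

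The other alpha genes had smaller differences. Tuba1c, a close relative of Tuba1b, was at 160.1 to 222 FPKM in control and 275 to 409 in knockout libraries, with means of 184 ± 24.3 and 337 ± 51.7 (1.83-fold, log2 0.86). Tuba4a, whose protein is also found in platelets, was at 327, 286, 402, 299 and 285 FPKM in control and 616, 536, 475, 549.5 and 389 in knockout. The groups overlapped, since CKO13 at 389 lay below WT4 at 402, and the means were 320 ± 48.8 and 513 ± 85.4 (1.60-fold, log2 0.68). Tuba1a, best known as the alpha gene of developing neurons, was at 103 to 167 FPKM in control and 112 to 182 in knockout libraries. Its means of 128 ± 24.4 and 146 ± 31.2 FPKM differed by less than their SDs (log2 0.18).

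Tubb1 had the largest difference of all 10, and it was lower in knockout. It was at 47.8, 112, 99.5, 188 and 124 FPKM in WT2 to WT6 and at 3.24, 4.75, 5.54, 18.9 and 6.23 in the knockout libraries. The groups did not overlap, and the spread within each was wide, 3.94-fold from WT2 to WT5 and 5.83-fold from CKO7 to CKO12. The means were 114 ± 50.6 and 7.73 ± 6.34 FPKM, 14.8-fold lower in knockout (log2 -3.83). That difference ranked 4th among the falls of the 6913 genes tested, a rank taken from the contrast on which Tubb1 was chosen. In sorted bulk samples fewer cells of a type and less RNA per cell cannot be told apart.

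Tubb2a and Tubb2b, a pair of neighbouring and nearly identical beta genes, were lower too. Tubb2a was at 68.3, 146, 150.4, 177 and 113 FPKM in control and 18.15, 15.45, 13.0, 40.7 and 19.6 in knockout libraries. Its means of 131 ± 41.7 and 21.4 ± 11.1 differed 6.12-fold (log2 -2.60). Tubb2b was far less abundant, at 1.62, 3.1, 4.59, 5.06 and 3.93 FPKM in control and 0.21, 0.16, 0.09, 0.92 and 0.21 in knockout. For both genes WT2 was the lowest control library and CKO12 the highest knockout library, as for Tubb1, and the groups did not overlap. Tuba8, an alpha isotype with a more divergent sequence, was the only alpha gene that was lower. It was at 46.1, 42.2, 51.1, 28.9 and 31.8 FPKM in control and 16.45, 21.2, 15.9, 20.9 and 12.7 in knockout, with means of 40.03 ± 9.44 and 17.4 ± 3.61 (2.30-fold, log2 -1.14).

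The balance between isotypes differed between the groups as well as the amount. The summed FPKM of the 5 alpha genes was 1614 ± 249 in control and 4088 ± 511 in knockout (2.53-fold), and that of the 5 beta genes 1067 ± 84.5 and 2060 ± 197 (1.93-fold). The ratio of the alpha to the beta sum was 1.27 to 1.78 in control and 1.88 to 2.05 in knockout libraries, with no overlap. All 10 genes together made up 0.290% to 0.360% of a control library's FPKM and 0.577% to 0.753% of a knockout library's. The ratio, like the shares within a chain below, needs no scaling between libraries, since numerator and denominator come from the same one. The share of all FPKM amounts to scaling to equal totals, so it depends on the levels of all other genes in the library.

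Among beta genes, Tubb1, Tubb2a and Tubb2b together held 11.8% to 35.4% of the beta sum in control libraries and 0.912% to 3.15% in knockout libraries. Their mean share was 23.3% ± 8.46 in control and 1.47% ± 0.966 in knockout. WT5 had the highest share and WT2 the lowest in control, and CKO12 the highest in knockout. Tubb5 went from 32.9% ± 3.72 to 46.0% ± 1.52 and Tubb4b from 43.8% ± 5.06 to 52.5% ± 1.0 of the beta sum. The ranges of Tubb4b overlapped, because WT2 at 51.6% lay above CKO9 at 50.9%. Among alpha genes, Tuba1b made up 58.2% ± 2.91 in control and 75.1% ± 2.80 in knockout, and Tuba8 2.46% ± 0.322 and 0.428% ± 0.0866. The shares of Tuba1a, Tuba1c and Tuba4a were smaller in knockout (means of 3.67%, 8.24% and 12.6%, against 8.06%, 11.4% and 19.9%), although none of these genes had a lower mean level there.

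**Figure D2:**
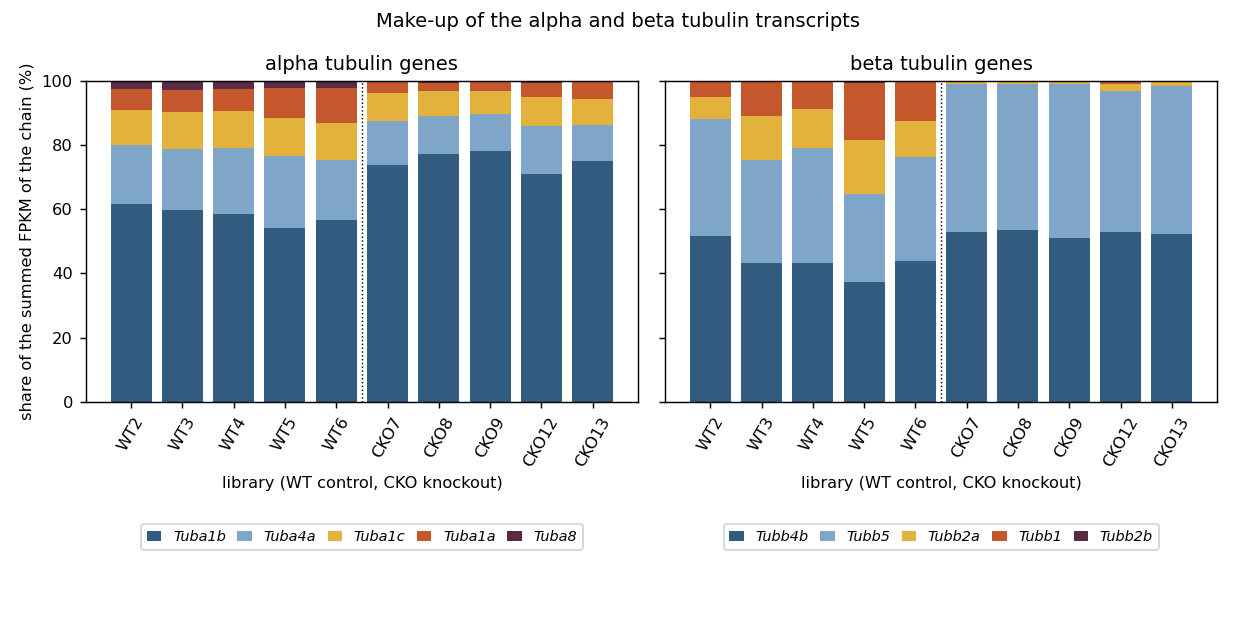
Share of each gene in the summed FPKM of the 5 alpha genes (left) and the 5 beta genes (right), in percent, as a stacked bar for each library. Tuba1b fills 54.1% to 61.8% of the alpha bars in control and 71.1% to 78.2% in knockout, and the top part of the beta bars, Tubb2a with Tubb1, nearly disappears in knockout.

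How far these genes can be told apart depends on their sequence. In the GENCODE M21 transcripts, 72.9% of the distinct runs of 50 bases in Tuba1a, 66.7% in Tuba1b and 52.7% in Tuba1c also occur in a transcript of another gene, pseudogenes included. Reads from these runs could be split among the genes or dropped, so the values of these 3 are uncertain one by one. Summed, Tuba1a, Tuba1b and Tuba1c made up 77.7% ± 1.60 of the alpha sum in control and 87.0% ± 1.60 in knockout. Tubb2a and Tubb2b share 712 such runs, 45.6% of those of Tubb2a and 31.3% of those of Tubb2b. Tubb4b shares 37.8%, mostly with its pseudogene Tubb4b-ps1. Tubb1 shares none, and Tubb5, Tuba4a and Tuba8 less than 1% each. The strand setting of the counting was not given in the sources used here, and Tuba4a overlaps Stk16, Tubb4b overlaps Fam166a, Tuba8 overlaps Gm15856, and Tuba1a and Tuba1b overlap Gm49450, Tuba1b also Gm41396.

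Neighbouring tubulin genes did not always go together. On chromosome 15 (mm10), Tuba1b (98931425 to 98934565) and Tuba1a (98949837 to 98953703) are 15.3 kb apart on the minus strand, and Tuba1c (99029891 to 99038110) follows 76.2 kb further on the plus strand. Tuba1b and Tuba1c were higher in knockout without overlap and Tuba1a overlapped. On chromosome 13, Tubb2a (34074274 to 34078007) and Tubb2b (34126748 to 34130466) lie 48.7 kb apart and were both lower. Tubb5 (chromosome 17, 35833921 to 35838306) lies 41.5 kb from Dhx16 itself (35879819 to 35892670). The 3 coding genes between them, chosen after their values were seen, are given with no test. Their log2 differences were -0.52 for Mdc1, 0.07 for Nrm and -0.51 for Ppp1r18 with the values as deposited. Over the scalings tried Mdc1 ranged from -0.66 to -0.07, Nrm from -0.07 to 0.55 and Ppp1r18 from -0.65 to -0.03. The other genes stand alone: Tuba4a on chromosome 1 (75214228 to 75219865), Tubb4b and Tubb1 far apart on chromosome 2 (25222160 to 25224702 and 174450695 to 174457882) and Tuba8 on chromosome 6 (121210696 to 121226854).

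Within each group some of the 10 genes varied together over the libraries. After each group's mean was taken off, the deviations of Tubb1 correlated with those of Tubb2a (Pearson r = 0.87) and Tubb2b (0.86) over the 10 libraries, and Tubb2a with Tubb2b (0.91). Tuba1b correlated with Tubb5 and with Tubb4b (0.95 each), and Tuba1c with Tuba4a (0.93). Tubb1 went against Tuba1b (-0.74) and Tubb4b (-0.70). Other pairs were weaker: Tuba1a reached no more than 0.46 with any of the genes (Tubb2b), and Tuba4a and Tuba8 were at -0.18 and -0.17 with Tubb1. These are descriptions: genes of a library share its scaling, the deviations of a group add up to 0, and Tubb2a and Tubb2b share reads. In CKO12, Tubb1 was 1.42 and Tubb2a 1.01 above the knockout mean on the log2 scale while Tuba1b was 0.21 below it, and in WT2 Tubb1 was 1.11 below the control mean and Tuba1b 0.24 above it.

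**Figure D3:**
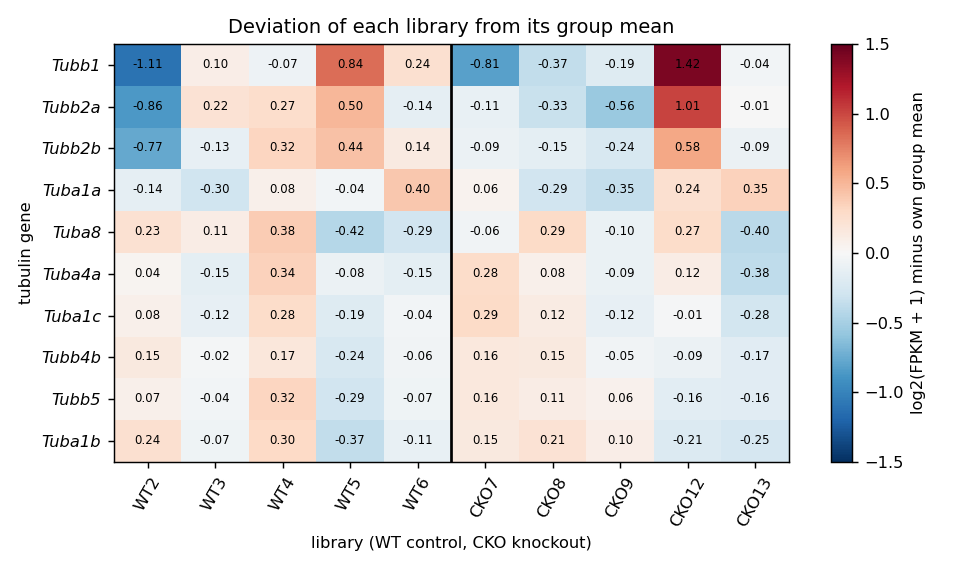
Deviation of each library's log2(FPKM + 1) from its own group mean, for the 10 tubulin genes (rows) in the 10 libraries (columns, control left of the line, knockout right), printed in each cell and coloured from blue (below) to red (above). Tubb1, Tubb2a and Tubb2b are lowest of the control libraries in WT2 and highest of the knockout libraries in CKO12.

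The genes most like each of 4 tubulin genes in these centred patterns, among the other 6912 tested, were as follows. For Tubb1 they were Alox12, Slc6a4 and Tcn2 (Pearson r = 0.950, 0.941 and 0.899, Spearman rho = 0.891, 0.952 and 0.794, 10 libraries), of which Alox12 codes for the platelet lipoxygenase and Slc6a4 for the serotonin transporter that platelets carry. For Tubb2a they were Slc6a4, Clec1b, a receptor of platelets, and 1810058I24Rik (0.941, 0.934 and 0.924). For Tuba1b they were Rbmxl1, Diablo and Pa2g4 (0.963, 0.961 and 0.953), and for Tubb5 the histone gene Hist1h2ae, Tuba1b itself and the condensin gene Smc2 (0.961, 0.953 and 0.947). The best of many genes over 10 libraries is high by selection, so these values only rank the genes.

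Megakaryocyte and platelet markers were lower in knockout, as Tubb1 was, and their part in its difference was not tested. Of 15 markers, with Tubb1 not among them, 13 were tested, 12 fell and 0 rose, against 31.6% and 21.1% of all tested genes. None of the 15 was at 0 in all libraries. Their summed level was 1918 to 2686 FPKM in control and 935 to 1670 in knockout libraries, so no knockout library reached the lowest control library. CKO12 had the highest sum in knockout and WT2 the lowest in control, as for Tubb1. The sums of the other controls did not follow that order. WT5, highest for Tubb1, had the second lowest sum (1990), and WT4, with the highest sum (2686), was the second lowest for Tubb1. The gene with most weight in the sum, Pf4, was itself highest in WT4 (1565 FPKM) and lowest in WT5 (919). Single markers differed in their order, and Clec1b was lowest in WT2 (23.7) and highest in WT5 (68.1), as Tubb1 was. The platelet chemokine gene Pf4, the most abundant marker, fell from 1172 ± 289 to 757.5 ± 244 FPKM (log2 -0.65, adjusted p = 0.0162). The 12 falls ran from -0.59 for Nfe2 to -3.90 for Clec1b (median of the 13 tested -1.69), beside -3.83 for Tubb1. Clec1b and Itgb3 reached the filter in control libraries alone, so the filter favoured their falls, and 9 of the 12 were called lower under every scaling. Nfe2, a transcription factor that megakaryocytes need to make platelets and that is known to act on Tubb1, fell from 273 ± 45.6 to 182 ± 35.7 FPKM (log2 -0.59, adjusted p = 0.00596). That call was lost under median-of-ratios scaling (adjusted p = 0.33). Gata1, which acts in megakaryocytes and red cells alike, rose from 55.2 ± 6.63 to 68.7 ± 8.32 FPKM (log2 0.31, adjusted p = 0.043). That call was lost with equal library totals (adjusted p = 0.287) and with no filter on low genes (adjusted p = 0.115). It was also lost without any 1 of 7 libraries (WT3, WT5, WT6, CKO7, CKO8, CKO12 or CKO13).

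Other marker lists are given as ranges of summed FPKM, with their most abundant gene, beside 21.1% of all tested genes called higher and 31.6% called lower. Those 2 shares hold for the values as deposited. The share of all tested genes called under every scaling is not given, here or for the platelet markers above. The 10 erythroid markers were at 109.8 to 389.9 in control and 748 to 1179 in knockout, and 9 of 9 tested rose under every scaling, with the carbonic anhydrase gene Car1 at 41.7 and 288 on average. The 6 macrophage markers were at 117 to 272 and 10.6 to 27.5, with the complement gene C1qb at 76.3 and 6.89, and 3 of 3 tested fell. Of these C1qa and C1qc passed the filter through control libraries alone, which favoured their falls. The 9 stem cell markers were at 685 to 965 and 459 to 699, and 6 of 8 tested fell, 3 of them under every scaling, with Slamf1, the gene of the sort marker CD150, at 21.5 and 10.9. The 5 B lymphocyte markers were at 43.9 to 67.6 and 24.6 to 36.3, with Cd79b at 34.9 and 22.5. Of these 2 of 2 tested fell, 1 of them under every scaling, and Ighm passed the filter through control libraries alone. The 5 T lymphocyte markers, with Cd4 at 2.07 and 1.32, summed to 5.32 or less in every library, and none was tested. In the granulocyte list S100a8 averaged 18892 and 11418 FPKM, and in the bone matrix list Bglap, the osteocalcin gene, 12828 and 11507. The part of these cells in the tubulin differences was not tested.

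Beyond the 10 genes, 130 other genes of tubulin and microtubule biology in 9 lists were looked up, and 82 passed the filter. Of these 32 rose and 16 fell, 39% and 19.5%, beside 21.1% and 31.6% of all tested genes. Their median difference was 0.08. Under every scaling of the libraries tried, 27 rose and 2 fell. The same count over all 6913 tested genes is not given, so this split is not read as a trait of these genes. The scalings bound it unevenly: equal totals called 1056 of all tested genes higher, and upper-quartile factors over all genes above 0 called 582 lower. Folding, mitotic and depolymerising genes held most of the rises with the values as deposited.

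**Figure D4:**
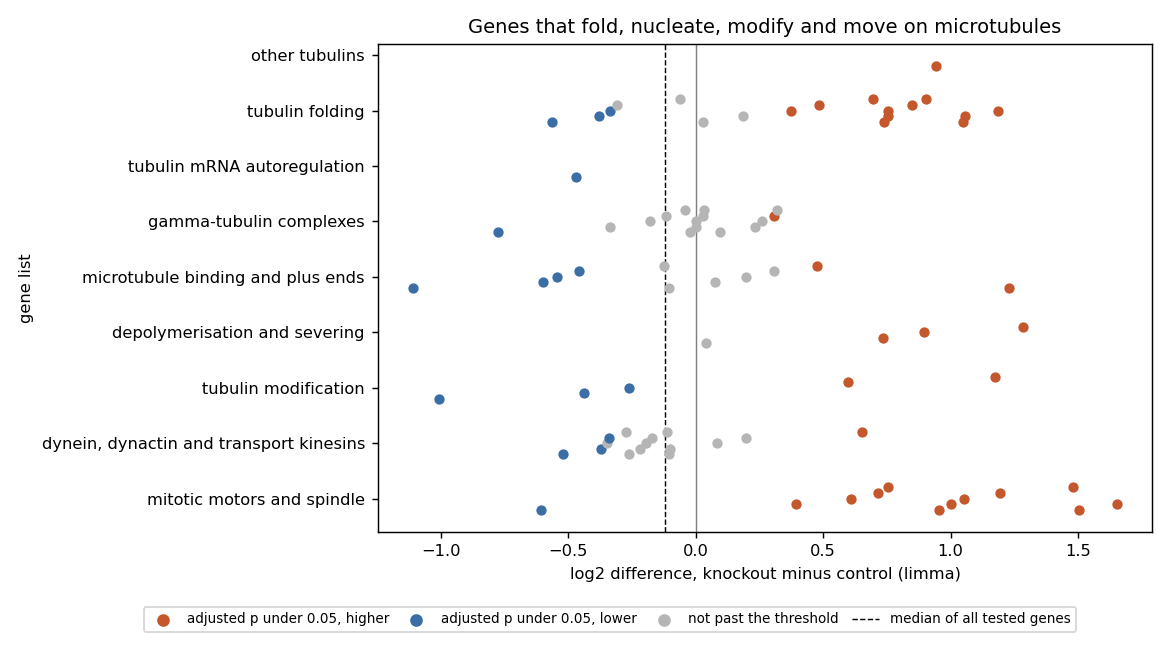
Log2 difference between knockout and control (limma) for the 82 tested genes of the 9 lists, 1 point per gene, coloured by whether the adjusted p was under 0.05 and in which direction. The dashed line is the median of all tested genes, -0.12, and 11 of the 12 mitotic genes lie to the right with a call, while 13 of the 15 genes of gamma-tubulin complexes are grey.

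Of the other 9 tubulin genes only Tubg1 was tested. It codes for gamma-tubulin, which starts new microtubules at the centrosome, and it rose from 20.6 ± 4.16 to 40.1 ± 5.61 FPKM (log2 0.94, SE 0.15, adjusted p = 0.000128). Tubd1 and Tube1, the delta and epsilon tubulins of centrioles, were below the filter at 7.91 and 9.73 and at 4.87 and 4.21 FPKM on average in control and knockout. The neuronal gene Tubb3 and Tubb4a were under 4 FPKM in all libraries, and Tubg2, Tubal3, Tuba3a and Tuba3b under 1.

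All 8 genes of the CCT chaperonin, the ring that folds tubulin and actin, rose by log2 0.70 to 1.19, and were called higher under every scaling. Of all tested genes, 21.1% were called higher and 31.6% lower with the values as deposited. The shares of all tested genes called under every scaling are not given. Cct8 went from 169 ± 19.9 to 385 ± 36.5 FPKM (log2 1.19, adjusted p = 5.86e-06) and Cct6a from 183 ± 22.04 to 381 ± 34.95 (log2 1.06, adjusted p = 1.16e-05). The other 12 folding genes, which code for tubulin cofactors and prefoldin subunits, were mixed. Of 10 tested 3 rose and 3 fell, and only 1 rise was called under every scaling. Median-of-ratios scaling called no gene of the folding list lower, and only 816 of all 6913 tested genes. Tbce, a cofactor in the last step of dimer assembly, fell from 32.4 ± 3.79 to 21.6 ± 2.1 FPKM (log2 -0.56, adjusted p = 0.00112), and Tbcc, a cofactor of the same complex, from 20.9 ± 2.43 to 16.1 ± 3.31 (log2 -0.38, adjusted p = 0.0416). Both calls were lost under median-of-ratios scaling (adjusted p = 0.156 and 0.96). The call of Tbcc was also lost with no filter on low genes (adjusted p = 0.123) and without WT2, WT3, WT6, CKO8, CKO9 or CKO13. The difference of Tbcc changed sign under upper-quartile factors over all genes above 0 (log2 0.09).

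Ttc5, the reader of new tubulin chains in mRNA control, fell from 37.6 ± 6.29 to 26.8 ± 4.55 FPKM (log2 -0.47, adjusted p = 0.0116) but was at -0.09 under median-of-ratios scaling (adjusted p = 0.522) and at 0.01 with upper-quartile factors over all genes above 0. Its call was also lost with no filter on low genes (adjusted p = 0.0559). Scaper and Cnot11, its partners in that process, were below the filter. Scaper averaged 5.65 ± 0.359 FPKM in the controls and 2.62 ± 0.432 in the knockouts, and Cnot11 1.73 ± 0.276 and 1.83 ± 0.340.

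Of 13 genes that depolymerise or sever microtubules 4 were tested, 3 rose and 0 fell, beside 21.1% and 31.6% of all tested genes. Stmn1, which sequesters dimers and is abundant in dividing cells, rose from 587 ± 133 to 973 ± 165 FPKM (log2 0.73, adjusted p = 0.00214). Fignl1 rose from 14.2 ± 3.44 to 35.7 ± 6.33 (log2 1.28, adjusted p = 2.92e-05) and the depolymerising kinesin Kif2c from 7.73 ± 0.975 to 15.6 ± 3.86 (log2 0.90, adjusted p = 0.000367). Kif2c passed the filter through knockout libraries alone, which favoured its rise. The remaining tested gene, the katanin gene Katna1, was at 31.3 and 32.3 FPKM on average (log2 0.04, adjusted p = 0.766).

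The mitotic list rose most. Of 12 tested genes 11 rose and 1 fell, with a median of 0.98, beside 21.1% and 31.6% of all tested genes and their median of -0.12. Plk1 and Ccnb1, a kinase and a cyclin of mitotic entry, had the largest rises (log2 1.65 and 1.5, adjusted p = 4.93e-06 and 2.99e-06). Numa1, which anchors spindle poles, fell from 46.5 ± 7.11 to 30.2 ± 4.43 FPKM (log2 -0.61, adjusted p = 0.00164), a call lost under median-of-ratios scaling (adjusted p = 0.15). The list was chosen with earlier results of these samples known, so its direction is no independent evidence.

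Genes for nucleation and transport were mostly not called with the values as deposited, where 21.1% of all tested genes were called higher and 31.6% lower. Of 15 tested genes of gamma-tubulin complexes and augmin 1 rose and 1 fell: Haus5 went from 24.2 ± 2.67 to 30.2 ± 2.76 FPKM (log2 0.31, adjusted p = 0.0332) and Akap9, a centrosomal and Golgi scaffold, from 49.7 ± 8.0 to 28.3 ± 1.31 (log2 -0.77, adjusted p = 0.000132, and 0.0554 with upper-quartile factors over all genes above 0). The call of Haus5 was lost with equal totals (adjusted p = 0.342), with no filter on low genes (adjusted p = 0.078) and without WT3, WT4, WT5, CKO7, CKO8 or CKO9. Median-of-ratios scaling called 10 of the 15 higher. Of 15 tested dynein, dynactin and kinesin transport genes, 1 rose and 3 fell. The split turned with the scaling, to 5 higher and 0 lower with median-of-ratios factors and 1 and 7 with equal totals. With upper-quartile factors over all genes above 0 it was 8 and 0. All 6913 tested genes turned the same way, to 3053 higher and 816 lower, 1056 and 2672, and 3560 and 582, in that order. Dynll1, a dynein light chain, rose from 122 ± 28.2 to 190 ± 21.6 FPKM (log2 0.65, adjusted p = 0.00253). The kinesin light chain Klc1 and Dync1li2 fell by 0.52 and 0.37 on the log2 scale (adjusted p = 0.00281 and 0.0317), and both calls were lost under median-of-ratios scaling (adjusted p = 0.351 and 0.962). The call of Dync1li2 was also lost with no filter on low genes (adjusted p = 0.089) and without WT2, WT5, WT6, CKO12 or CKO13.

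Of 11 tested genes of microtubule binding and plus ends 2 rose and 4 fell, beside 21.1% and 31.6% of all tested genes. That split turned to 5 higher and 1 lower with median-of-ratios factors and to 7 and 1 with upper-quartile factors over all genes above 0. The split of all 6913 tested genes turned the same way, to 3053 and 816 and to 3560 and 582. Tacc3, which stabilises spindle fibres, rose from 27.7 ± 4.29 to 66.6 ± 10.96 FPKM (log2 1.23, adjusted p = 1.07e-05) and the end-binding gene Mapre1 from 64.2 ± 9.40 to 89.3 ± 6.34 (log2 0.48, adjusted p = 0.00308, and 0.0558 with equal totals). Macf1, a large linker of actin and microtubules, fell from 26.1 ± 3.12 to 11.6 ± 1.59 FPKM (log2 -1.11, adjusted p = 1.22e-05), also under every scaling, and Tacc1 from 62.6 ± 7.99 to 40.9 ± 3.37 (log2 -0.60, adjusted p = 0.000517, and 0.12 under median-of-ratios scaling). Of 18 genes that modify tubulin 5 were tested, 2 rose and 3 fell, and 1 of the falls remained under median-of-ratios scaling. Atat1, the enzyme that acetylates alpha-tubulin, fell from 30.1 ± 5.97 to 14.5 ± 2.74 FPKM (log2 -1.01, adjusted p = 0.000142) under every scaling, and Tpgs1 fell by 0.44 (adjusted p = 0.00458, and 0.655 under median-of-ratios scaling). Ttll12 and Svbp, the partner of the detyrosinating vasohibins, rose by log2 1.18 and 0.60 (adjusted p = 7.19e-05 and 0.00154), whereas Vash1 and Vash2, the vasohibin genes, were both under 2 FPKM on average in each group.

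The direction of all 10 tubulin differences was the same under 5 other scalings of the libraries, with pseudocounts of 0.1 and 5 and with each library left out in turn. The sizes did change with the scaling. Tuba1b ranged from 1.57 to 2.21 on the log2 scale, Tubb5 from 1.29 to 1.93 and Tubb1 from -3.96 to -3.37. Tuba1a came closest to no difference, from 0.04 with equal totals to 0.67. The difference of Tubb2b depended on the pseudocount, at -1.80 with 1, -3.35 with 0.1 and -0.69 with 5. The authors' deposited table gave log2 fold changes of 2.12 for Tuba1b, 1.85 for Tubb5, 1.63 for Tubb4b, 1.3 for Tuba1c, 1.09 for Tuba4a, 0.59 for Tuba1a, -0.77 for Tuba8, -2.19 for Tubb2a, -3.07 for Tubb2b and -3.45 for Tubb1. Mean normalized counts in the authors' deposited table, which bear on the precision, ran from 51.0 for Tubb2b to 47279 for Tuba1b, with 934 for Tubb1.

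**Figure D5:**
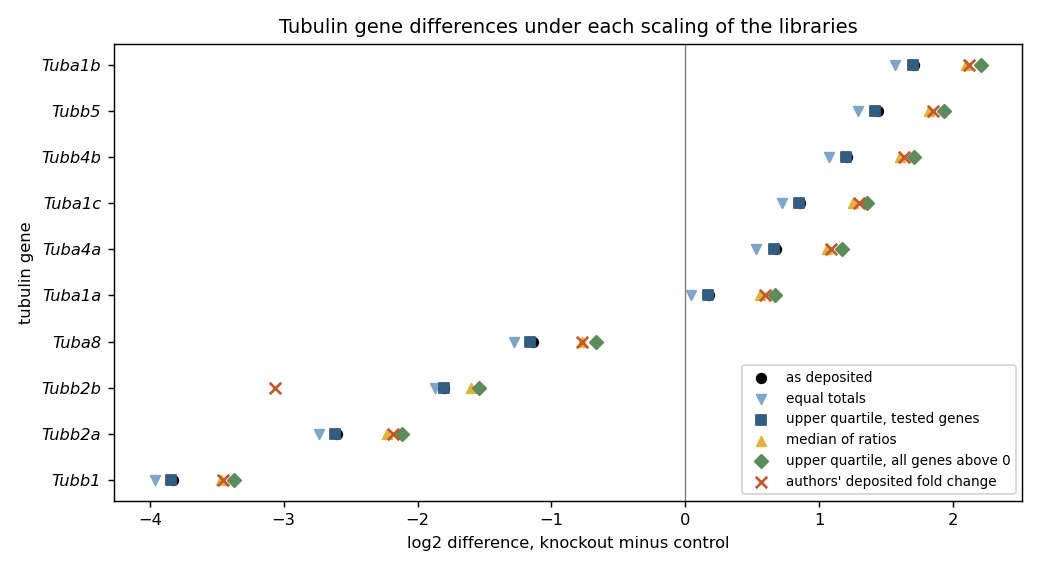
Log2 difference between knockout and control of the 10 tubulin genes with the values as deposited, under 4 other scalings of the libraries, and as the authors' deposited fold change (crosses). The points of a gene lie on 1 side of 0 for all 10 genes, with Tuba1a nearest to it (0.04 with equal totals), and the cross of Tubb2b at -3.07 stands apart from its other points.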

How the data were processed

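RNA from 10 samples of sorted haematopoietic stem cells (SMART-Seq v4, per the labels) was available as 1 table of all genes. Its library columns are FPKM values made by the authors, a unit read from the values because the header does not name it. The submitters' processing notes name the mm10 build and, as tools, HTSeq, Cufflinks 2.1.1 and Bowtie 0.12.9, but tie none of them to a column, and the strand setting is not given in the sources used here. Per the file headers the table also holds the authors' own comparison in the column names of DESeq2: a mean normalized count (a signal averaged over all libraries), a log2 fold change with its error, a Wald score and p-values. Of these only the mean and the log2 fold change were used, as the authors' deposited values.

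FPKM were tested as log2(FPKM + 1) with limma 3.58.1 in R 4.3.3 (trend and robust), 5 control against 5 knockout libraries with no covariate, for the 6913 genes at 10 FPKM or more in at least 5 libraries, with Benjamini-Hochberg adjustment over all of them and a threshold of 0.05. A fold change on this scale understates the change of low genes. The fit was tested on simulated data. Values are mean ± SD. Library columns were matched to their group and not to single samples. Named genes are the 10 tubulin genes; in each pathway list the 2 called genes with the largest difference in each direction and all genes of lists of 3 or fewer; Ttc5, Stmn1, Tubg1, Nfe2 and Gata1; the most abundant gene of each marker list; and the 3 genes most like each of 4 tubulin genes. Kit, Slamf1, Itgb3, C1qa, C1qc, Ighm, Katna1, the 3 genes between Tubb5 and Dhx16, and the untested tubulin and vasohibin genes were named outside that rule. The tubulin genes, the lists and the tests were chosen with earlier results of these data known. Alternatives were other pseudocounts, filters, scalings and limma options, library weights and leaving out each library. Python 3.11.15 was used for sums, shares and sequence searches. Since the files give no read counts per library, no counting interval is given.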

Additional observations from a re-analysis of the deposited data

Results flagged for a closer look

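In 13 of 134 groups of 5 libraries, 1 library lay so far from the other 4 that its gap passed 0.71 of the group's range, the 95% critical value of Dixon's test. Chance gives this in about 1 of 20 groups, and many of the groups share genes. CKO12 gave 8 of the 13. It had 18.89 FPKM of Tubb1 (the next knockout library had 6.23), 40.72 of Tubb2a (19.61) and 0.92 of Tubb2b (0.21). In shares of the beta sum, the same library was at 0.9843% for Tubb1, 0.04794% for Tubb2b and 3.154% for Tubb1, Tubb2a and Tubb2b together, and therefore at 96.85% for Tubb4b with Tubb5. Ttll12 was low there, at 14.36 FPKM (22.91). Without CKO12 the difference of Tubb1 was the largest of its leave-one-out runs, at -4.18 on the log2 scale.

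Of the other 5, WT4 had the highest beta sum in control, 1213 FPKM, with 1056 in the next library. Ccnb1 was low in WT5 (28.59 FPKM, next 39.84), Macf1 in WT6 (20.68, next 26.24) and Tbce in CKO7 (17.88, next 22.04). The bone matrix markers summed to 65870 FPKM in WT6 and to 15720 in the next control library.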

How the results depend on the processing

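All 10 tubulin differences kept their direction under every scaling, pseudocount and left-out library. Of 6913 tested genes 3642 were called, 1460 higher and 2182 lower, and of the 82 microtubule genes 32 and 16. Scaling changed these splits: median-of-ratios factors gave 3053 higher and 816 lower (microtubule genes 52 and 3). Upper-quartile factors over all genes above 0 gave 3560 and 582 (59 and 2), and scaling to the authors' fold changes 2991 and 819 (49 and 3), both chosen after seeing the data. These scalings moved the median of all tested genes from -0.12 to 0.25, 0.36 and 0.26 on the log2 scale, and equal totals to -0.25. Filters changed the number of genes tested: at 1 FPKM 6687 genes were called (4890 lower, microtubule genes 26 lower), with no filter 5910 (4523 lower) and at 20 FPKM 1263 were lower. Under the upper-quartile factors over all genes above 0, Dync1li2 and Tbcc were at 0.09, Tpgs1 at 0.04 and Ttc5 at 0.01, against falls with the values as deposited, and Dync1li2 was at 0.00 with the authors' scaling. Summing Tuba1a, Tuba1b and Tuba1c gave a share difference of 9.35 percentage points, against 16.9 for Tuba1b alone. With each library left out in turn, 3225 to 3701 genes were called (1236 to 1608 higher, 1894 to 2231 lower), 43 to 50 microtubule genes (29 to 32 and 12 to 18), Dhx16 was at -0.87 to -0.72 (over scalings -0.94 to -0.35, called in each), and the share differences were 15.9 to 17.9 points for Tuba1b, 11.7 to 14 for Tubb5 and -24.7 to -18.8 for Tubb1, Tubb2a and Tubb2b together. No paired analysis was possible because the library columns carry other numbers than the sample titles. Depth is unknown, which limits Tubb2b most.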
